A study of Mus musculus with 12 samples.

Results

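The transcripts described here encode 10 plasma-membrane transporters of amino acids, taken by name from the 28689 genes measured in mouse lung endothelial cells (MLECs): Slc7a1, Slc7a3, Slc7a5, Slc7a11, Slc3a2, Slc1a4, Slc1a5, Slc38a1, Slc38a2 and Slc6a9. All 10 were in the table and passed the filter on low values, which kept genes with at least 1 FPKM (fragments counted per kilobase of gene and scaled to library depth) in at least 6 of the 12 libraries. The RNA sequencing compared MLECs of control (CTR) mice with MLECs of mice lacking the transcription factors Sp1 and Sp3 in endothelium (dKO), with 6 libraries in each group. dKO mice were VE-CAD-CreERT2+/Sp1 fl/fl/Sp3 fl/fl and CTR mice were their Cre-negative littermates with the same floxed alleles, which the labels call WT, and both groups of adult mice received tamoxifen. The Cre is driven by VE-cadherin regulatory sequences, so recombination was directed at endothelial cells, while the cells sequenced were cultured MLECs, selected with beads against CD31 and later against ICAM2. The mice used were male and 6 to 8 weeks old. Replicates are described in general as biologically independent, but how many mice gave each library is not stated in the sources used here, so the p-values below measure the spread between these libraries. The comparison asks which transcripts differed between the libraries of these dKO and CTR mice.

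Amino-acid transporters of the solute carrier families move amino acids across the plasma membrane by exchange, by coupling to sodium or, for the cationic ones, by facilitated entry. Slc3a2 encodes the heavy chain CD98, a membrane glycoprotein that several light chains of the Slc7 family need to reach the cell surface. In endothelium, cationic amino-acid transport supplies arginine, the substrate of nitric oxide synthase, and cystine uptake feeds the synthesis of glutathione. Many of these genes are known targets of ATF4, a transcription factor that rises when amino acids run short. Sp1 and Sp3 are zinc-finger factors that bind GC-rich promoter sequence known as GC boxes.

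Sp1 transcripts were at 21.2 ± 1.77 FPKM in CTR (mean ± SD, n = 6 libraries here and below) and 10.6 ± 1.53 FPKM in dKO, and each dKO library was below each CTR library (limma, log2 fold change −0.95, adjusted p = 5.68e-06). Sp3 was at 27.7 ± 2.31 FPKM in CTR and 25.0 ± 1.64 FPKM in dKO, only 2 of the 6 dKO libraries were below each CTR library, and the difference did not pass the adjusted p threshold of 0.05 (log2 fold change −0.14, adjusted p = 0.0902). Of the targeted genes, Sp1 is thus the one whose transcripts check the labels. By immunofluorescence the authors report less Sp1 and less Sp3 protein in aortic endothelium of dKO mice, and protein was not measured in these libraries. The libraries held 15523054 to 17938286 fragments, and for a 2 kb gene a single fragment equalled 0.0279 to 0.0322 FPKM. Of the 12467 genes tested, 32.6% were lower and 20.4% were higher in dKO at an adjusted p under 0.05, so a single call is a common event in these data. With the libraries scaled by the median of ratios, the share of higher genes among those called was 50.9% in place of 38.5%.

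Beyond the endothelial cells the labels name, the libraries held transcripts of other cells, and some of these moved with the groups. The calls in this paragraph stand beside 20.4% higher and 32.6% lower among all tested genes. Of 12 endothelial markers, 11 were higher in dKO, and their summed level ran from 212 to 345 FPKM in CTR and from 389 to 525 FPKM in dKO. Cdh5, which encodes VE-cadherin, was at 88.9 ± 16.1 and 140 ± 17.1 FPKM. Of 10 macrophage markers, 9 were higher and 1 (Marco) was lower, with sums of 819 to 1366 FPKM in CTR and 2339 to 5343 FPKM in dKO, led by Lyz2. Of 7 fibroblast markers tested, 5 were lower and 1 was higher, with sums of 2162 to 2738 FPKM in CTR and 835 to 1679 FPKM in dKO, led by Col1a1. Mesothelial markers were higher in dKO for 5 of 6 tested (sums of 28.9 to 38.6 and 66.3 to 146 FPKM, led by Msln), and leukocyte markers for 3 of 4 tested (4.18 to 8.34 and 11.7 to 21.3 FPKM, led by S100a8). Proliferation genes were lower for 5 of 9 (85.2 to 259 and 87.8 to 122 FPKM). That count moved with the analysis, to 2 by an exact permutation test and to 7 with the replicate number as a block. Pcna, the most abundant of the 9, was not called (41.8 ± 13.3 and 42.7 ± 5.21 FPKM, log2 fold change 0.07, limma adjusted p = 0.724). Smooth muscle, pericyte and lung epithelial markers had at most 1 call in each direction, with sums that overlapped between the groups, and were led by Acta2, Pdgfrb and Sftpc. Erythroid and retina markers, led by Alas2 and Rcvrn, were under 1 FPKM in every library. The part of these shifts in the transporter results was not tested, and in bulk RNA fewer cells of a type and less RNA per cell cannot be told apart.

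Across the 10 transporters, 8 were lower in dKO at an adjusted p under 0.05 and 0 were higher, against a background of 32.6% of all tested genes lower. The 10 were chosen with earlier results of these data known. The shares of all tested genes given here therefore describe the 10 and are no independent test of them as a group. Slc7a5, Slc1a5 and Slc7a3 also passed an absolute log2 fold change of 1.5, which 0.553% of the tested genes did in that direction. In 7 of the 10 each dKO library was below each CTR library, as it was for 16.1% of the tested genes. The median log2 fold change of the 10 was −1.26, while that of all tested genes was −0.10, with 5th and 95th percentiles of −0.76 and 0.86. Slc38a1 and Slc38a2 did not pass the threshold. Slc7a3, counted in the 7 and among those past both thresholds, passed the filter on low values through the CTR group, which favours such a gap. It kept its call with no filter (limma adjusted p = 0.00172). With no filter 7 of the 10 were lower at an adjusted p under 0.05, as Slc7a11 no longer passed.

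**Figure D1:**
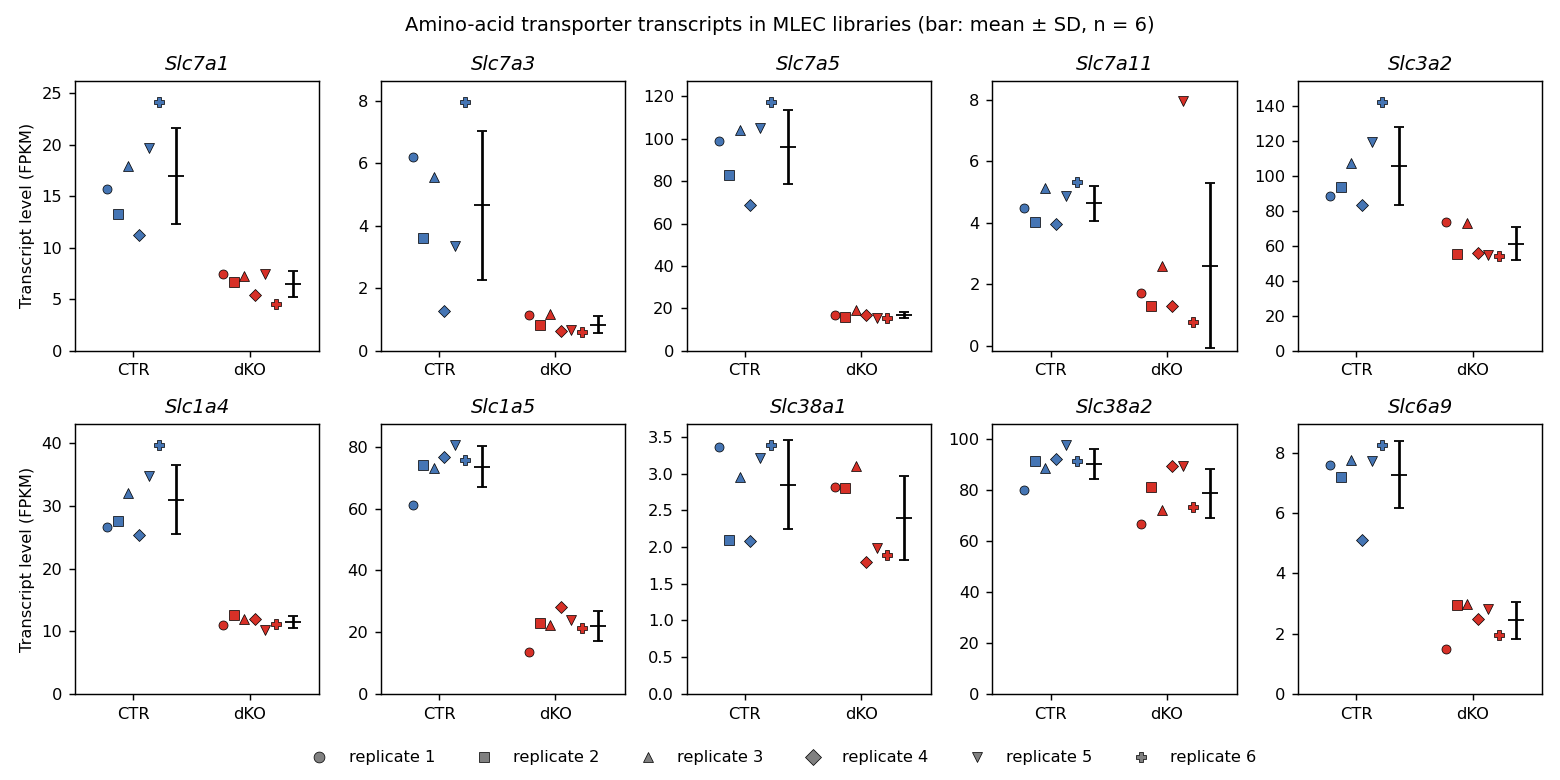
Transcript level in FPKM (vertical axis, a separate linear scale for each gene) in each CTR (blue) and dKO (red) library, with symbols for replicate numbers and bars for the mean ± SD of 6 libraries. The groups are apart for 7 genes; for Slc7a11 a single dKO library at 7.95 FPKM lies above all CTR libraries, and Slc38a1 and Slc38a2 overlap.

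The RefSeq promoter table held windows for 6 of the 10 genes. It held none for Slc7a5, Slc1a5, Slc7a3 and Slc38a1, so the genes past both thresholds have no window here. From the 6, 4 stretches of 180 bases are shown because they cover both a strong and a weak difference and both kinds of motif. Each runs 5′ to 3′ on the gene's strand from 160 bases before the annotated start, with capitals for the GC box GGGCGG and for the ATF4 site core TGATGNAA on either strand. The sequences are RefSeq's (GRCm38.p6 windows), and each matched the minus strand of GRCm39 once, Slc1a4 at chr11:20282694-20282873, Slc3a2 at chr19:8691242-8691421, Slc38a2 at chr15:96597590-96597769 and Slc7a11 at chr3:50398043-50398222.
Slc1a4: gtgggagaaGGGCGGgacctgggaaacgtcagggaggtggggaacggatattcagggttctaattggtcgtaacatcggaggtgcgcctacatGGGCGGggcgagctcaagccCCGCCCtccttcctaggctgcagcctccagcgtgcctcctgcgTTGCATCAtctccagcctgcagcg
Slc3a2: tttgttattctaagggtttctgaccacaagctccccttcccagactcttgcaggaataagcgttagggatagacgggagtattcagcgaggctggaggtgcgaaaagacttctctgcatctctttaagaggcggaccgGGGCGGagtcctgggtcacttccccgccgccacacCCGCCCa
Slc38a2: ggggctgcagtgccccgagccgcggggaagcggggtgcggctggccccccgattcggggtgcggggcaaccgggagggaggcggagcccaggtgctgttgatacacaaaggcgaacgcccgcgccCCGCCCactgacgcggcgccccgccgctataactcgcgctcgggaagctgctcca
Slc7a11: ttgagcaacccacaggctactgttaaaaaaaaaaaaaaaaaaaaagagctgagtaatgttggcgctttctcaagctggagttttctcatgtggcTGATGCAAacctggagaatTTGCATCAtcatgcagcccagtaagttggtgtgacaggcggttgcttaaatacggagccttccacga

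Counting the annotated start as 0, Slc1a4 had GC boxes beginning at −151, −67 and −47 and an ATF4 core at −4. Slc3a2 had GC boxes at −22 and 13, in a window whose start lies 9847 bases downstream of the GENCODE gene start, and Slc38a2 had a GC box at −35. Slc7a11 had no GC box and had ATF4 cores at −66 and −47, on opposite strands. Of the windows not printed, Slc7a1 had a GC box at −36 and Slc6a9 had boxes at −61 and −51. A GC box thus stood in a window of 5 of the 6 genes, against 38.2% of the 27025 genes of the RefSeq table, and in 5 of the 9 windows of these genes, against 35.7% of the 32851 windows of that length. The longer GC box GGGGCGGGG stood in 0 of the 6, against 12.9% of all genes. The ATF4 core stood in a window of 2 of the 6 genes, against 4.51% of all genes. The antioxidant response element core TGACNNNGC stood in 3 of the 6, against 14.0% of all genes, and the E-box CACGTG in 0 of the 6, against 8.09%. The backgrounds cover all genes of the RefSeq table, whether or not tested here, while the 6 genes all passed the filter on low values. These sets are unlike, so the shares are no measure of enrichment. A relation between these motifs and the differences between the groups was not tested.

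The heteromeric exchangers held the 2 most abundant of the 10 in CTR, Slc3a2 and Slc7a5, and the largest log2 fall among the 10. Slc7a5 (chromosome 8, 122607884 to 122634433, minus strand, GRCm39 here and below) encodes LAT1, the light chain that exchanges leucine and other large neutral amino acids. It was at 68.9 FPKM in the lowest CTR library, 102 at the median and 117 in the highest, and at 15.4, 16.5 and 19.1 FPKM in dKO. The groups were far apart, with the lowest CTR library 3.60 times the highest dKO library. The mean was 82.7% lower in dKO, at 96.3 ± 17.5 against 16.7 ± 1.37 FPKM (log2 fold change −2.44, SE 0.11, limma adjusted p = 3.01e-08), and only 6 of the 12467 tested genes had a lower fold change.

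Slc3a2 (chromosome 19, 8684245 to 8701108, minus strand) encodes the CD98 heavy chain with which LAT1 and other light chains pair. Its levels were 83.3, 100.4 and 142 FPKM in the lowest, median and highest CTR library and 54.2, 55.7 and 73.7 FPKM in dKO. The groups did not overlap, although the lowest CTR library was only 1.13 times the highest dKO library. The mean fell by 42.1%, from 106 ± 22.2 to 61.2 ± 9.49 FPKM (log2 fold change −0.77, SE 0.13, limma adjusted p = 0.000452). The non-coding gene Snhg1 shares 743 exon bases with it on the opposite strand and reached at most 11.1 FPKM. The counting program's use of strand is not given in the sources used here, so fragments in that overlap cannot be assigned. Slc7a1, Slc1a4, Slc38a1, Slc38a2 and Slc6a9 also share exon bases with non-coding genes on the opposite strand, which were not analysed here.

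Slc7a11 (chromosome 3, 49846975 to 50398070, minus strand) encodes xCT, the light chain that exchanges glutamate for cystine. CTR libraries were at 3.98, 4.69 and 5.32 FPKM (lowest, median and highest) and dKO libraries at 0.787, 1.51 and 7.95 FPKM. dKO replicate 5 was above each CTR library, and the other 5 dKO libraries, from 0.787 to 2.62 FPKM, were below each of them. The difference passed the threshold in the 12 libraries (4.64 ± 0.563 against 2.61 ± 2.69 FPKM, log2 fold change −0.87, SE 0.30, limma adjusted p = 0.0280). It did not pass by the exact two-sided permutation test (p = 0.0368, adjusted p = 0.0668) or with limma and no filter on low values (adjusted p = 0.0627). Without dKO replicate 5 the log2 fold change was −1.18 (limma adjusted p = 7.86e-05). The call was lost without CTR replicate 3 or 6 and without dKO replicate 2, 4 or 6, with adjusted p from 0.0510 to 0.0645. Of the dKO libraries, replicate 5 had the lowest macrophage sum (2339 FPKM) and the highest pericyte sum (104 FPKM), and it was inside the dKO range of the other marker sums given above with tested genes.

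Within a library, the ratio of a light chain to the heavy chain does not depend on how the library is scaled. Slc7a5 stood at 0.826 to 1.12 times Slc3a2 in CTR, with a median of 0.884, and at 0.230 to 0.302 times in dKO, with a median of 0.284. These ranges were apart, so the light chain fell by more than the heavy chain. Slc7a11 stood at 0.0374 to 0.0511 times Slc3a2 in CTR and at 0.0145 to 0.145 times in dKO, and these ranges overlapped because of dKO replicate 5.

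**Figure D2:**
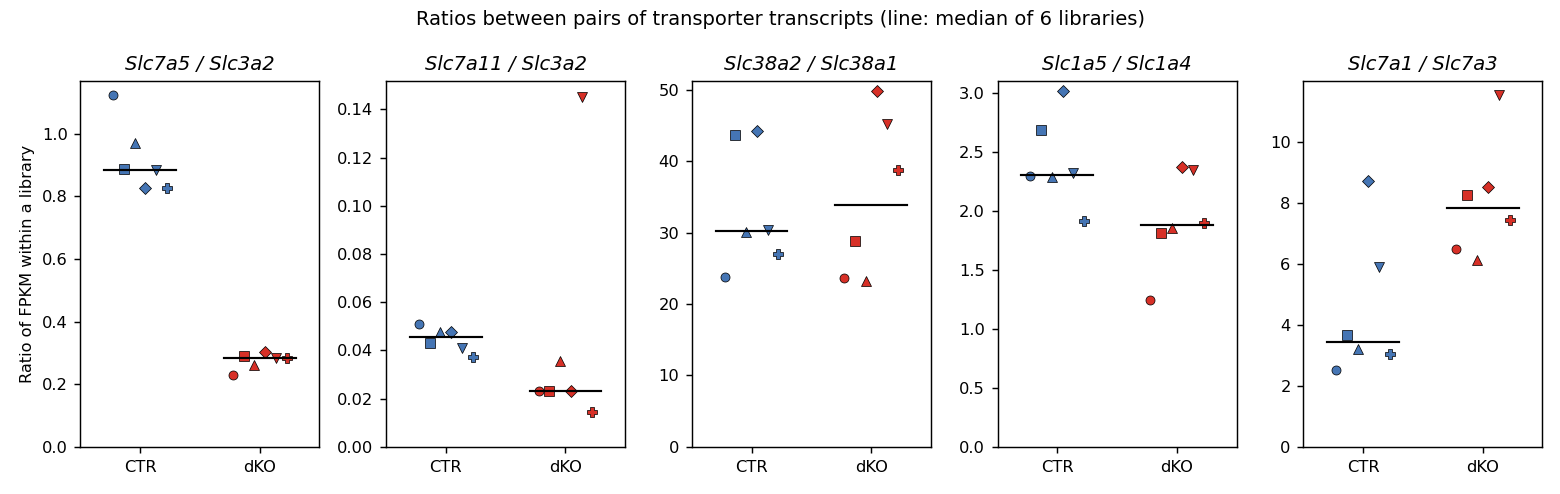
Ratio of FPKM between pairs of transporters (vertical axis, linear, from 0) in each CTR (blue) and dKO (red) library, with a line at the median of 6 libraries and the same symbols for replicate numbers as in the plot of transcript levels. Slc7a5 to Slc3a2 is the pair whose groups are apart, with medians of 0.884 and 0.284; the other 4 pairs overlap.

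The cationic amino-acid transporters Slc7a1 and Slc7a3 fell. Slc7a1 (chromosome 5, 148264220 to 148336848, minus strand) encodes CAT-1, which carries arginine and lysine. It was at 11.2, 16.8 and 24.1 FPKM in the lowest, median and highest CTR library and at 4.50, 6.97 and 7.49 FPKM in dKO. Each dKO library was below each CTR library, and the mean was 61.9% lower (17.0 ± 4.65 against 6.46 ± 1.23 FPKM, log2 fold change −1.25, SE 0.17, limma adjusted p = 6.45e-05).

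Slc7a3 (chromosome X, 100122745 to 100129631, minus strand) encodes CAT-3, a second carrier of cationic amino acids. CTR libraries were at 1.29, 4.58 and 7.97 FPKM and dKO libraries at 0.604, 0.729 and 1.19 FPKM. The ranges nearly touched, with CTR replicate 4 at 1.29 FPKM 1.08 times the highest dKO library. The mean fell from 4.66 ± 2.38 to 0.837 ± 0.264 FPKM, which is 82.0% lower (log2 fold change −1.51, SE 0.27, limma adjusted p = 0.000452). It reached 1 FPKM in all 6 CTR libraries but in 2 dKO libraries, so it passed the filter through the CTR group. Its dKO values rested on 38 to 79 fragments a library, and the added 1 FPKM shrinks the change of such a low transcript: with 0.01 FPKM added in its place the log2 fold change was −2.31. Slc7a1 stood at 2.53 to 8.72 times Slc7a3 in CTR and 6.12 to 11.5 times in dKO, so the ranges of this ratio overlapped. Slc7a2, which encodes CAT-2 of the same family, is named here after its values were seen. It was at 18.2 ± 8.25 and 11.9 ± 6.30 FPKM, with overlapping groups, and did not pass the threshold (log2 fold change −0.60, SE 0.32, limma adjusted p = 0.133).

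The neutral amino-acid exchangers of the Slc1 family fell in all dKO libraries. Slc1a5 (chromosome 7, 16515265 to 16532731, plus strand) encodes ASCT2, which exchanges glutamine and other neutral amino acids. Its levels were 61.0, 75.0 and 80.6 FPKM in CTR and 13.6, 22.6 and 28.3 FPKM in dKO (lowest, median and highest), with the lowest CTR library 2.16 times the highest dKO library. The mean was 70.1% lower, at 73.6 ± 6.66 against 22.0 ± 4.78 FPKM (log2 fold change −1.72, SE 0.14, limma adjusted p = 1.43e-06). Slc1a4 (chromosome 11, 20252180 to 20282774, minus strand) encodes ASCT1, which exchanges alanine, serine, cysteine and threonine. It was at 25.4, 29.8 and 39.7 FPKM in CTR and at 10.1, 11.6 and 12.7 FPKM in dKO, and the lowest CTR library was 2.01 times the highest dKO library. The mean was 63.0% lower, at 31.0 ± 5.53 against 11.5 ± 0.890 FPKM (log2 fold change −1.35, SE 0.10, limma adjusted p = 1.19e-06). Slc1a5 stood at 1.91 to 3.01 times Slc1a4 in CTR and at 1.24 to 2.37 times in dKO, and these ranges overlapped.

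Slc6a9 (chromosome 4, 117691703 to 117732395, plus strand) encodes GlyT1, a sodium- and chloride-coupled carrier of glycine, one of the amino acids of glutathione. CTR libraries were at 5.10, 7.68 and 8.26 FPKM and dKO libraries at 1.48, 2.65 and 3.0 FPKM. The groups did not overlap, and CTR replicate 4 lay apart below the other CTR libraries. The mean was 66.4% lower (7.28 ± 1.12 against 2.44 ± 0.613 FPKM, log2 fold change −1.27, SE 0.13, limma adjusted p = 9.96e-06), and without CTR replicate 4 the log2 fold change was −1.36. On the opposite strand B4galt2 shares 551 of its exon bases and reached at most 7.29 FPKM, and Ccdc24 shares 1429 bases and reached at most 0.0574 FPKM. The non-coding gene Gm17114 shares 511 bases there. As for Slc3a2, fragments in these overlaps cannot be assigned.

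The sodium-coupled neutral amino-acid transporters of the Slc38 family had the smallest differences of the 10. Slc38a2 (chromosome 15, 96585266 to 96597894, minus strand) encodes SNAT2, which carries small neutral amino acids. It was at 79.9, 91.5 and 97.6 FPKM in the lowest, median and highest CTR library and at 66.6, 77.1 and 89.5 FPKM in dKO. The groups overlapped, with 3 dKO libraries below each CTR library, and the means were 90.2 ± 5.86 and 78.6 ± 9.56 FPKM (log2 fold change −0.20, SE 0.08, limma adjusted p = 0.0539). The value lay near the threshold, which it passed in 6 of the 24 alternative analyses. Slc38a1 (chromosome 15, 96469298 to 96541851, minus strand) encodes SNAT1, a glutamine carrier. It was at 2.08, 3.08 and 3.39 FPKM in CTR and at 1.79, 2.39 and 3.10 FPKM in dKO, which overlapped (2.85 ± 0.608 against 2.40 ± 0.573 FPKM, log2 fold change −0.18, SE 0.13, limma adjusted p = 0.262). It passed the threshold in 0 of 23 alternative analyses. Slc38a2 stood at 23.8 to 44.2 times Slc38a1 in CTR and at 23.2 to 49.9 times in dKO.

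**Figure D3:**
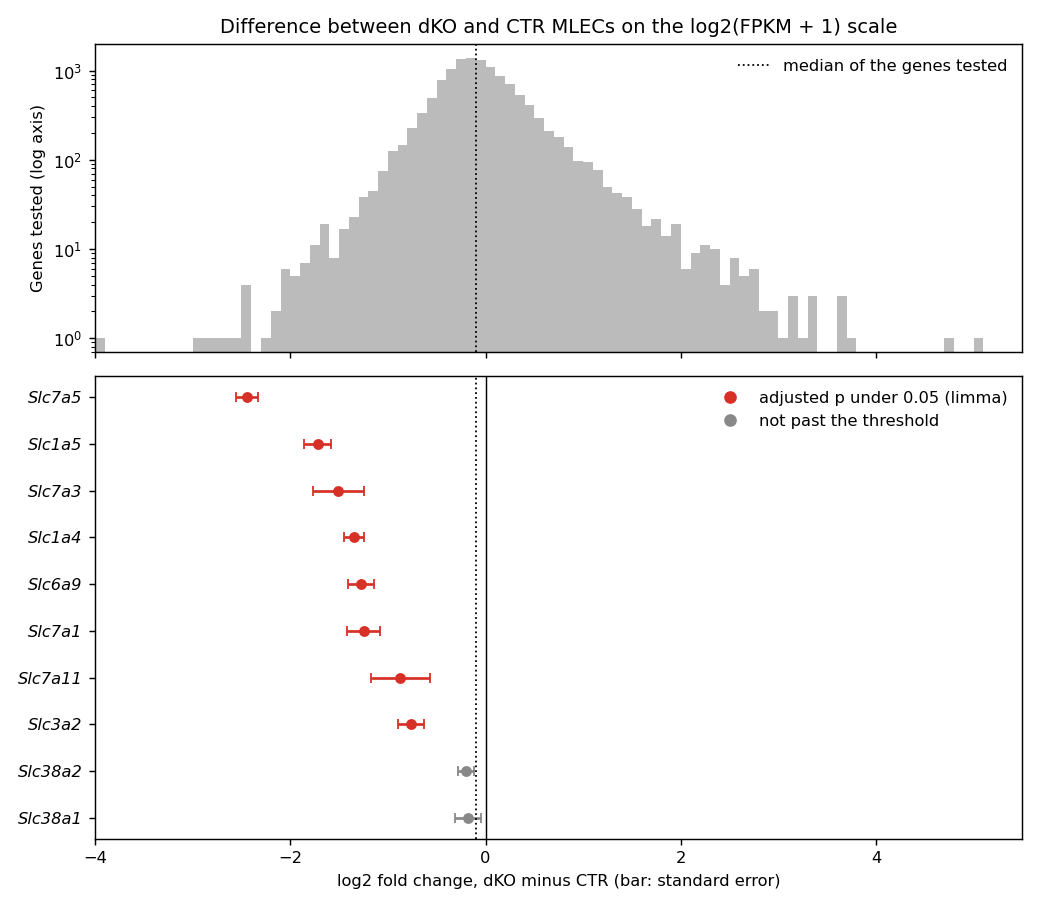
Upper panel, number of genes (log axis) by log2 fold change, dKO minus CTR, on the log2(FPKM + 1) scale for the 12467 tested genes. Lower panel, the fold change of each transporter with its standard error, in red where the limma adjusted p is under 0.05; the dotted line is the median of all tested genes at −0.10, and values run from −2.44 for Slc7a5 to −0.18 for Slc38a1.

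FPKM are levels per gene length, and the order of these levels differed between the groups. In CTR the order of the mean levels was Slc3a2, Slc7a5, Slc38a2 and Slc1a5, whose neighbouring ranges overlapped, then Slc1a4, Slc7a1, Slc6a9, Slc7a3, Slc7a11 and Slc38a1. From Slc1a5 to Slc6a9 the range of each gene lay apart from that of the next, Slc6a9, Slc7a3 and Slc7a11 overlapped neighbour by neighbour, and Slc38a1 lay below Slc7a11. In dKO the order was Slc38a2, Slc3a2, Slc1a5, Slc7a5, Slc1a4, Slc7a1, Slc7a11, Slc6a9, Slc38a1 and Slc7a3. There the ranges of Slc38a2 and Slc3a2 overlapped, as did those of Slc1a5 and Slc7a5 and those of neighbours from Slc7a1 to Slc38a1.

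The summed level of the 10 was 370 to 516 FPKM in CTR (median 422) and 185 to 216 FPKM in dKO (median 208), so these ranges did not overlap. Slc7a5 made up a median of 22.4% of the sum in CTR and 8.14% in dKO. Slc38a2 made up 20.4% and 39.8%, with ranges of 17.7% to 24.9% and 33.4% to 41.8%. Slc3a2 made up 23.8% and 28.3%, with overlapping ranges.

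The CTR libraries varied together in these transcripts. CTR replicate 6 was the highest CTR library for 8 of the 10 and CTR replicate 4 the lowest for 8 of the 10. CTR replicate 4 also had the highest endothelial (345 FPKM), macrophage (1366 FPKM), leukocyte (8.34 FPKM), pericyte (109 FPKM) and lung epithelial (534 FPKM) sums of the CTR libraries and the lowest smooth muscle (475 FPKM) and proliferation (85.2 FPKM) sums. CTR replicate 6 had the highest smooth muscle sum (1448 FPKM) and the lowest macrophage sum (819 FPKM). A relation between the transporters and these sums was not tested.

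The remaining carriers of amino acids moved in both directions. Of a list of 54, 48 were in the table and 29 were tested; 9 were higher, 7 were lower and 13 did not pass the adjusted p threshold, beside backgrounds of 20.4% and 32.6% of all genes. Their median log2 fold change was 0.06. The list members Slc32a1, Slc38a8, Slc6a18, Slc6a5, Slc7a12 and Slc7a9 were not analysed here, and 18 others were under 1 FPKM in every library.

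Among carriers that fell, Slc1a3, a sodium-coupled glutamate transporter, went from 5.33 ± 1.37 to 1.68 ± 0.484 FPKM (log2 fold change −1.23, limma adjusted p = 6.64e-05). Slc38a4, a further neutral amino-acid carrier of the Slc38 family, was at 5.56 ± 2.63 and 2.05 ± 0.696 FPKM (−1.04). Slc43a1, a carrier of large neutral amino acids, was at 3.19 ± 1.02 and 1.28 ± 0.383 FPKM (−0.86). Slc7a6, a light chain that pairs with the Slc3a2 heavy chain, was at 16.2 ± 1.30 and 10.5 ± 1.46 FPKM (−0.59). The groups did not overlap for Slc1a3, Slc43a1 and Slc7a6, and they overlapped for Slc38a4. Picking the largest falls favours such a gap. In the whole list 5 of the 29 tested genes were apart and lower, beside 16.1% of all tested genes.

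Among carriers that rose, Slc7a8 encodes LAT2, which like LAT1 is a light chain of CD98 for neutral amino acids, and it went from 4.01 to 7.13 FPKM in CTR libraries to 8.61 to 31.4 FPKM in dKO libraries. Its means were 5.34 ± 1.21 and 18.9 ± 7.80 FPKM (log2 fold change 1.57, limma adjusted p = 0.000172), and it was the 1 gene of this list past both thresholds, which 1.43% of all tested genes passed in that direction. Slc43a2, a carrier of large neutral amino acids, was at 4.13 ± 1.10 and 10.6 ± 2.82 FPKM (1.17), and Slc66a1, a lysosomal carrier of cationic amino acids, at 3.21 ± 0.443 and 5.79 ± 0.930 FPKM (0.69). Slc1a6, a glutamate transporter known from neurons, was at 0.675 ± 0.251 and 2.55 ± 0.934 FPKM (1.06), and no CTR library reached 1 FPKM, so it passed the filter through dKO. For Slc7a8, Slc43a2 and Slc66a1 each dKO library was above each CTR library, though picking the largest rises favours such a gap. Slc1a6 was apart in the same way, and its entry through dKO also favours this. In the whole list 6 of the 29 tested genes, Slc1a6 among them, were apart and higher, beside 11.3% of all tested genes. Slc1a6 passed the adjusted p in each of 23 alternatives, among them that without a filter.

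**Figure D4:**
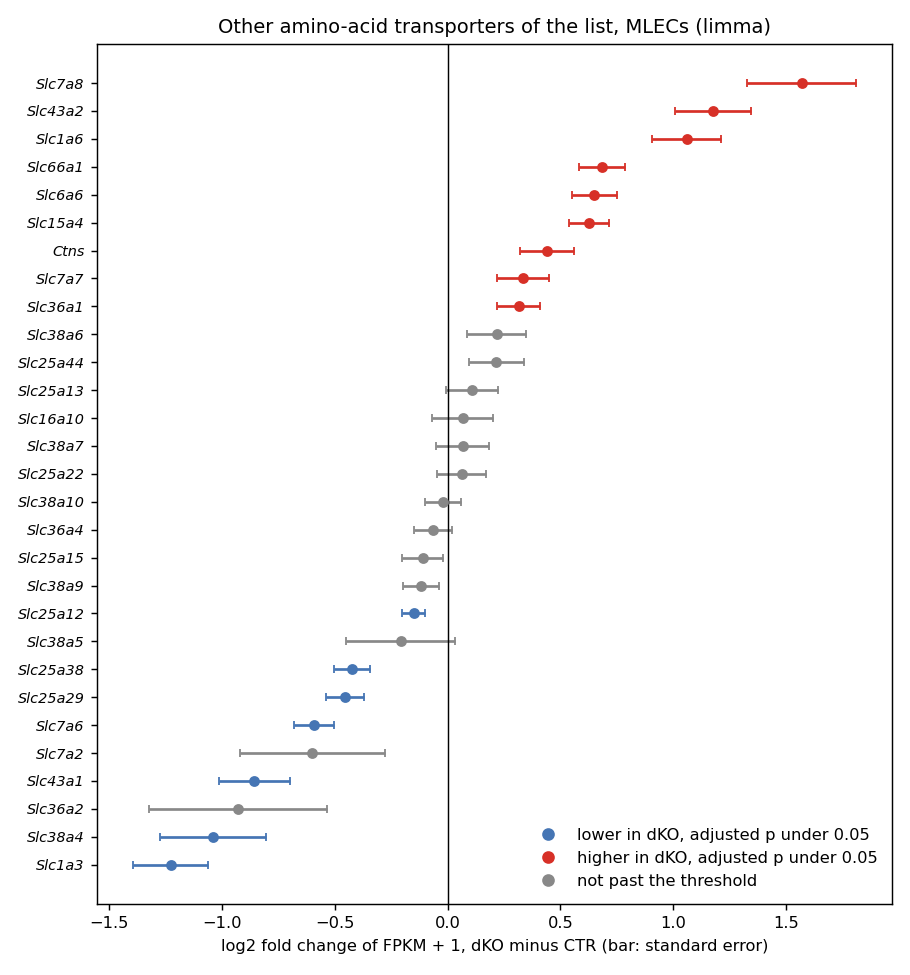
log2 fold change of FPKM + 1, dKO minus CTR (horizontal axis), with its standard error, for the 29 tested genes of the list of other amino-acid transporters, in blue where lower and in red where higher at a limma adjusted p under 0.05. Values run from −1.23 for Slc1a3 to 1.57 for Slc7a8, with 7 genes lower and 9 higher.

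Cells gauge their amino acids through GCN2 (Eif2ak4) and ATF4 and through the sestrins and Rag GTPases that act on mTORC1. Of 26 genes of these routes, 25 were tested; 7 were higher, 6 were lower and 12 did not pass the threshold, beside 20.4% higher and 32.6% lower among all tested genes, with a median log2 fold change of −0.02. The balance turned with the scaling, with 5 higher and 7 lower after rescaling to TPM and 9 higher and 5 lower after median-of-ratios scaling. Atf4 was at 234, 327 and 391 FPKM in the lowest, median and highest CTR library and at 151, 164 and 222 FPKM in dKO, without overlap (314 ± 55.0 against 173 ± 25.2 FPKM, log2 fold change −0.85, limma adjusted p = 0.000124). Sesn2, a leucine sensor and a known ATF4 target, was at 35.0 ± 5.84 and 18.4 ± 1.68 FPKM (−0.88). Nprl3, a subunit of the GATOR1 complex that restrains mTORC1, was at 4.34 ± 0.579 and 2.61 ± 0.185 FPKM (−0.56).

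The largest rises of this list were those of Rragd, Fnip2 and Lamtor4. Rragd, a Rag GTPase, was at 2.82 ± 0.665 and 6.51 ± 0.854 FPKM (log2 fold change 0.99). Fnip2, a partner of folliculin, was at 12.5 ± 2.45 and 20.8 ± 4.50 FPKM (0.69), and Lamtor4, a subunit of the Ragulator that anchors the Rags, at 17.8 ± 2.92 and 27.0 ± 2.82 FPKM (0.58). Each dKO library was above each CTR library for these 3, and below for Atf4, Sesn2 and Nprl3. In the whole list 4 of the 25 genes were apart in each direction, beside 11.3% of all tested genes higher and 16.1% lower.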

How the data were processed

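RNA of MLECs was sequenced in 12 libraries, 6 CTR and 6 dKO. The methods describe libraries made with an NEB Next kit and paired-end sequencing, while the labels' extraction note speaks of retinas and a TruSeq kit. The authors checked reads with FastQC, trimmed them with Trimmomatic, mapped them to mm39 with STAR, extracted uniquely aligned reads with sambamba and mapped these again, and the submitters' processing notes also list Bowtie2 2.2.3, HISAT2 2.1.0, TopHat2 and DESeq2. The counting program, annotation and strand setting are not given in the sources used here. The authors deposited FPKM values of 28689 genes. Knockout columns carry a name for tamoxifen, although CTR mice received it too, and were assigned by the labels. Symbols and positions came from the GENCODE annotation of GRCm39 for 27706 of the genes.

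FPKM are not counts, so log2(FPKM + 1) was tested with limma 3.58.1 in R 4.3.3 (lmFit, eBayes with trend, no covariate), on genes reaching 1 FPKM in 6 or more libraries, with Benjamini-Hochberg adjustment over the 12467 genes tested. Thresholds were an adjusted p of 0.05 and, where said, an absolute log2 fold change of 1.5. A fold change on this scale understates the change of low transcripts. Permutation tests were exact and two-sided, over 924 assignments of libraries to 6 and 6, with 0.00216 as the smallest p they can give. Fragments were recovered as whole numbers, to within 0.001 fragment and the rounding of the table. For 8895 genes the annotated exon length gave them, and for the other 19794 a length that does was searched for, so a whole value there is in part set by the search. Libraries of a group differed beyond sampling noise in all 30 pairs (chi-square per degree of freedom at least 12.2), so none holds the values of another, which does not show that they came from separate mice. The steps were tested on simulated data. Matplotlib 3.10.9, pandas 2.3.3, NumPy 2.4.6 and Python 3.11.15 served for the rest.

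Motifs were searched on both strands in the RefSeq windows of 250 bases before and 50 from the start. A GC box match can overlap the longer GGGGCGGGG, and overlapping matches were counted.

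The transporters and all gene lists were chosen with earlier results of these data known. Named genes are the 10 transporters, Sp1 and Sp3, the 4 largest rises and 4 largest falls past the adjusted p among other transporters, the 3 and 3 of the sensing list, and the most abundant marker of each list. Marco and Slc7a2 were named after their values were seen. Alternatives were pseudocounts of 0.1 and 0.01, no filter, a filter of 5 FPKM in 6 libraries or on a mean of 1 FPKM, rescaling to TPM, median-of-ratios scaling, quantile normalization, limma-voom on the recovered fragments, robust eBayes, the exact permutation test, the replicate number as a block, leaving out each library in turn, and a longer GC box.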

Additional observations from a re-analysis of the deposited data

Results flagged for a closer look

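Groups of 6 values were examined for part of the named genes, 52 groups in all. In 5 of them a library lay apart from the rest of its group by more than Dixon's test at the 95% level allows. Chance gives about 1 in 20 groups, or 2.6. Slc7a11 was at 7.95 FPKM in dKO replicate 5, against 0.787 to 2.62 FPKM in the other dKO libraries. Slc6a9 was at 5.10 FPKM in CTR replicate 4, against 7.19 to 8.26 FPKM. Atf4 was at 222 FPKM in dKO replicate 1, against 151 to 176 FPKM. Lamtor4 was at 23.5 FPKM in CTR replicate 4, against 15.4 to 17.7 FPKM, and at 32.5 FPKM in dKO replicate 6, against 25.0 to 27.0 FPKM.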

How the results depend on the processing

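Slc7a1, Slc7a5, Slc3a2, Slc1a4, Slc1a5 and Slc6a9 were lower in dKO and past the adjusted p in each of 24 alternatives, and Slc7a3 in each of 23, since Slc7a3, Slc7a11 and Slc38a1 were not tested with a filter of 5 FPKM. No difference changed direction in any of them. Slc7a11, at −0.87, was not past the threshold without a filter (adjusted p = 0.0627, limma) or by the exact permutation test (adjusted p = 0.0668), and leaving out a library moved it between −1.18 and −0.72. Slc38a2 passed with TPM (−0.25, adjusted p = 0.0312) and with quantile normalization (−0.29, adjusted p = 0.0167), and leaving out a library gave −0.24 to −0.16. With the replicate number as a block it also passed (−0.20, adjusted p = 0.0197), as did 9 of the 10 transporters and 6955 genes. Correlations of same-numbered libraries ran from −0.11 to 0.57 and 2 of 6 dKO libraries correlated best with their own number, so the numbers were not taken to pair the libraries. The cause of these changes was not tested.

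The number of transporters past the adjusted p was 6 to 9 over the alternatives and 7 to 9 with a library left out, and past both thresholds 2 to 4 and 2 to 3, since Slc7a3 lay near the fold threshold and was not tested with the filter of 5 FPKM, and Slc6a9 passed it with pseudocounts of 0.1 and 0.01, TPM and limma-voom (−1.60 to −1.53). Of all genes 6614 passed the adjusted p, 4222 of 7891 tested with the filter of 5 FPKM, and 5858 to 6841 leaving out 1 library. Past both thresholds were 247 genes, 486 and 525 with pseudocounts of 0.1 and 0.01, 387 with TPM, 516 with limma-voom, and 231 to 265 leaving out 1 library. Of the other transporters 16 passed, 8 of 13 tested with the filter of 5 FPKM, and 15 to 17 leaving out 1 library. The longer GC box was in windows of 0 of the 6 genes, in place of 5. Median-of-ratios scaling left the 8 calls in place, with Slc7a11 at −0.81. The planned edgeR test was not run, since the deposited values are not counts. Of the 10 transporters, depth limits Slc7a3 most, with as few as 38 fragments in a dKO library. Of the other transporters named, Slc1a6 had only 15 to 37 fragments in the CTR libraries.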
